A study of Sus scrofa with 13 samples.

Results

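The ovary of the adult Guizhou mini-pig, a small Chinese breed, was compared with 8 other organs of the same breed and age. The comparison rests on the 1 library labelled ovary among the 13 libraries of total RNA in the series. The other organs, each also with 1 library of pigs 240 days after birth, were heart, liver, spleen, lung, kidney (spelled kindey in its label), testis, adipose tissue and longissimus dorsi, a back muscle. The 4 remaining libraries, longissimus dorsi at day 0 and day 30 and 2 pooled mixtures that span several breeds and ages, stood outside the comparison. No treatment or genotype is given for any library, and the labels do not say how many animals gave each RNA or at which stage of the oestrous cycle the ovary was taken. Ribosomal RNA had been depleted and strand-specific libraries made by either the SMART or the dUTP protocol, with the protocol of each library not named. With 1 library per organ there was no replicate check and no test between organs, so each difference below is between 2 libraries, and the intervals given cover the counting error of the reads only.

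The ovary holds oocytes within follicles, the theca and granulosa cells that surround them, the corpora lutea that follicles become after ovulation, and a collagen-rich stroma covered by a surface epithelium. Its steroid hormones are made from cholesterol, which cells take up from lipoproteins or synthesise, and which CYP11A1 cleaves in mitochondria to pregnenolone, the precursor of progesterone, androgens and oestrogens. Testis Leydig cells share most of this pathway, so testis is the nearest of the organs in steroid synthesis. In bulk RNA such as this, more cells of a type and more RNA per cell cannot be told apart.

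Levels were deposited as RPKM (reads scaled to feature length and library total), which allows genes to be compared per length. The ovary library had the smallest total behind RPKM, 21685316 reads against 30822198 to 38581416 in the other organs, but the largest share of it counted on listed features, 38.0% against 11.6% in spleen to 32.1% in testis. Its RPKM values therefore summed to 214285, above the 61672 of spleen and the 190421 of testis, which were the lowest and highest of the others. This difference touches every comparison: over all 15252 Ensembl genes with at least 1 RPKM in any of the 9 organs, the median difference of ovary from the median of the other 8 organs was 1.49 in log2(RPKM + 0.1) as deposited, 0.36 after each library was scaled to the same RPKM sum, and 0.06 after scaling by the median ratio. Differences and folds below are on RPKM scaled to the same sum unless stated, and levels are RPKM as deposited. A feature was called higher when ovary was at least 2-fold above the other level compared and had at least 1 RPKM, and lower when it was at least 2-fold below a level of at least 1 RPKM.

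Of the 15252 genes, 477 (3.13%) were called higher in ovary than in the highest other organ. On RPKM as deposited 2014 (13.2%) were, and these had to include all 477, since ovary had the largest RPKM sum. Against the median of the other organs, 3766 genes (24.7%) were called higher and 709 (4.65%) lower, against 9051 (59.3%) and 164 (1.08%) as deposited. Among the 477, 336 were less than 4-fold above the highest other organ and 19 were at least 16-fold above it. That organ was most often adipose (111 genes), testis (102) or lung (93) and least often heart (9), and 8 genes were listed at 0 in all 8 others. The genes called carried 12.2% of the RPKM sum of ovary, and 466 of them had at least 20 ovary reads. With median-ratio scaling, 317 of the 477 were called.

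**Figure D1:**
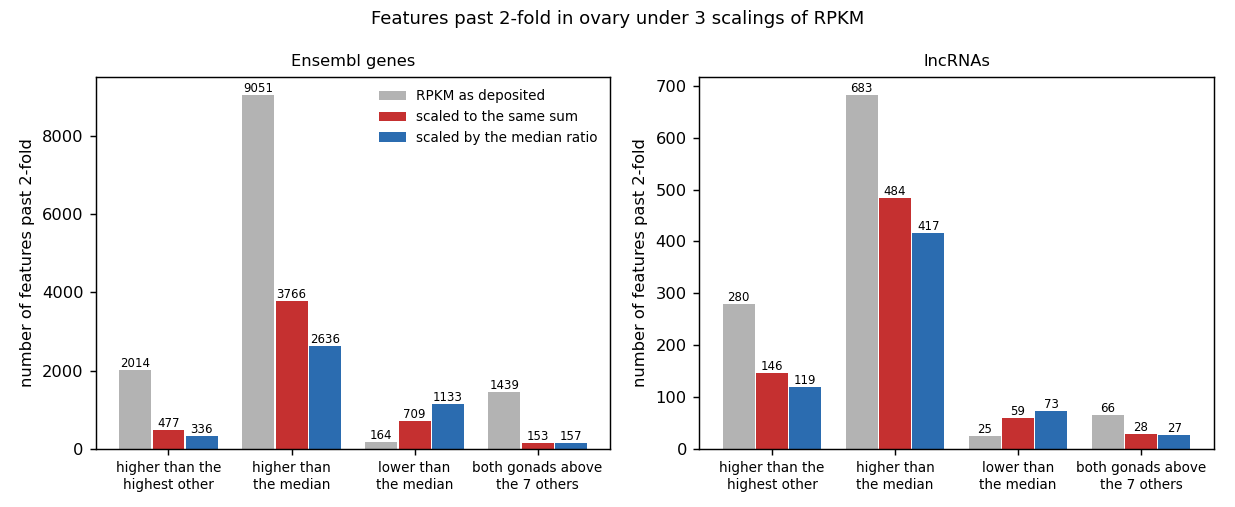
Bars give the number of features past 2-fold in ovary (linear axis from 0) for Ensembl genes (left) and lncRNAs (right) under 4 call rules and 3 scalings of RPKM, with the number above each bar. Genes higher than the highest other organ number 2014 as deposited, 477 scaled to the same sum and 336 scaled by the median ratio, so the count rests on the scaling.

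Several genes of steroid synthesis lay far above the non-gonadal organs. Of the 23 genes listed, 12 were paired with an identifier and 11 reached 1 RPKM. Of these, 10 were called higher than the median of the other organs, as were 24.7% of all genes, and 4 higher than the highest of them, among them CYP11A1, SCARB1 and NR5A2, and none was lower. With median-ratio scaling 3 were higher than the highest. The median difference from the median organ was 3.44 in the list against 0.36 over all genes. From the highest other organ it was -0.48 against -1.48. This list and those below were chosen with earlier results of these data known, so their counts and medians are a description.

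CYP11A1 (ENSSSCG00000025273), the cholesterol side-chain cleavage enzyme, stood at 638 RPKM in ovary (95% interval 628 to 648, 16075 reads). In testis it stood at 94.2, and the highest of the 7 other organs was 0.0237, a single read. The ovary was 6.02-fold above testis (counting interval 5.82 to 6.23), and both gonads lay apart from all other organs. FDXR, which passes electrons to mitochondrial steroid enzymes, showed the same order with 25.4 in ovary, 12.7 in testis and at most 0.580 elsewhere, but its 1.78-fold excess over testis stayed under the limit. CYP17A1, which turns pregnenolone and progesterone into androgen precursors, had the reverse order of the gonads. It was at 35.2 in ovary and 548 in testis, 17.5-fold higher in testis, with at most 0.264 in the other organs. CYB5A, the cytochrome b5 that aids the lyase step of CYP17A1, was at 581 in ovary and 721 in testis, with 2.69 to 81.7 in the rest. The remaining listed enzymes were less confined to the gonads. HSD17B4 read 85.5 in ovary, 93.1 in testis and 45.9 in liver, and HSD17B12 read 32 in ovary and 39.6 in adipose.

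Uptake of cholesterol and its control showed a clear lead of ovary over testis. SCARB1, the receptor for high-density lipoprotein, was at 93.9 RPKM (91.4 to 96.5) against 6.86 in testis and a median of 1.55 over the 8 others. It was 9.84-fold above liver, the highest other organ after scaling (8.62 to 11.3). NR5A2, the nuclear receptor LRH-1 of granulosa and luteal cells, was at 38.0 (36.7 to 39.4) against 2.44 in testis and 1.49 in liver. The corepressor NR0B1 (DAX-1) went the other way, at 0.365 in ovary and 1.40 in testis.

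Genes of cholesterol supply were mostly above the median organ. All 22 paired genes of synthesis, uptake and transport were measured, and 20 were called higher than the median organ, with a median difference of 3.05. Higher than the highest other organ were 7, or 4 with median-ratio scaling, and the median difference from the highest organ was -0.24. HMGCS1, an early enzyme of cholesterol synthesis, was at 189 RPKM in ovary, 62.7 in testis and 14.2 in liver, 2.68-fold above testis. MSMO1, a methylsterol oxidase, was at 110 against 20.2 in testis, and IDI1, an isoprenoid isomerase, at 9.73 against 1.91. NPC1, which moves cholesterol out of lysosomes, was at 22.7 against 2.84 in testis and 2.38 in lung, 3.65-fold above lung. The call of MSMO1 was lost with median-ratio scaling, where its difference was 0.88.

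Not all steps shared this order. CYP51A1, a demethylase of cholesterol synthesis, was at 61.9 in ovary and 84.9 in testis, and SOAT1, which esterifies cholesterol for storage, at 11.1 and 22.3. The pathway's transcription factor SREBF2 was at 6.24 in ovary against a median of 5.70 over the other organs, a scaled difference of -0.75.

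**Figure D2:**
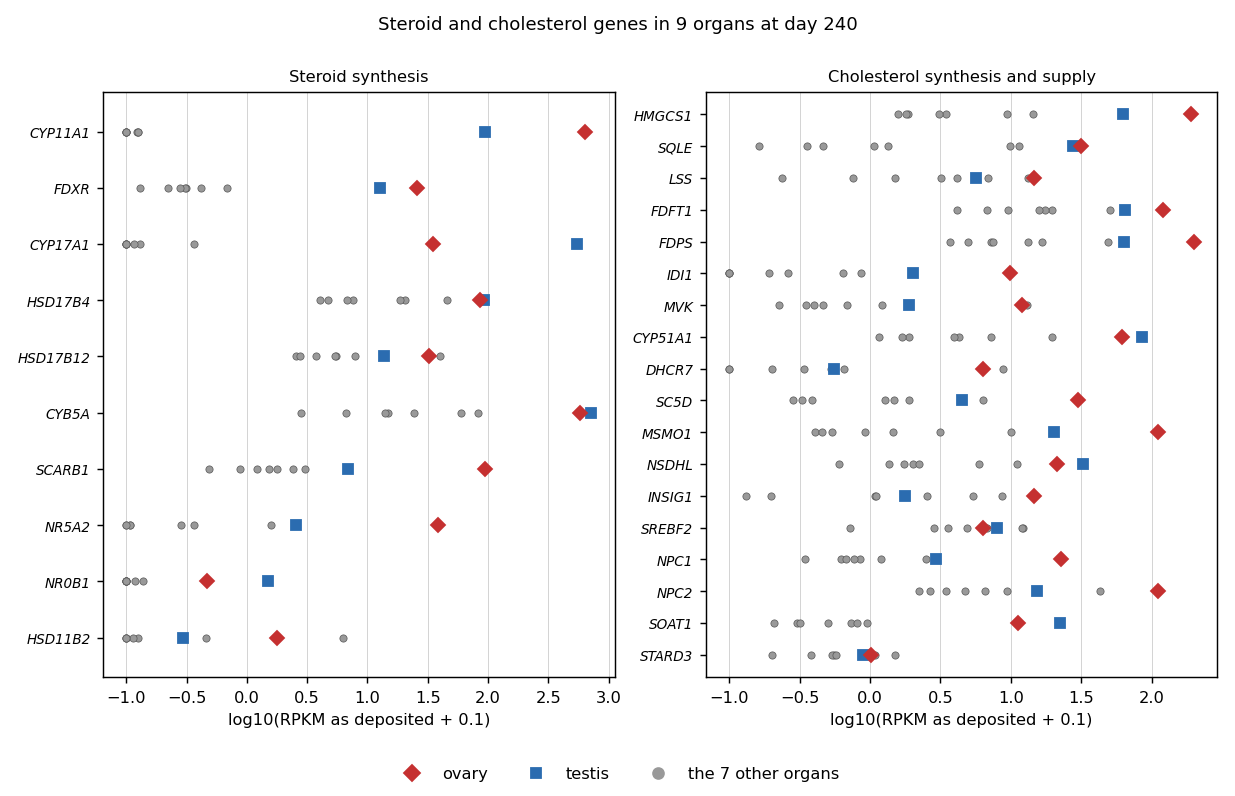
Each row is a gene reported here of steroid synthesis (left) or cholesterol supply (right), and the x axis is log10(RPKM as deposited + 0.1). Red diamonds mark ovary, blue squares testis and grey circles the 7 other day 240 organs, 1 library each. CYP11A1 lies at 638 RPKM in ovary and 94.2 in testis with all other organs under 0.1, while CYP17A1 has its highest value, 548, in testis.

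Follicle and granulosa genes were present at lower levels. Of 30 listed, 20 were paired and 14 reached 1 RPKM, of which 11 were called higher than the median organ and 5 higher than the highest other organ (9 as deposited, 3 with median-ratio scaling). Over all genes these shares were 24.7% and 3.13%, and the counts of each list below stand against them. FSHR, the receptor for follicle-stimulating hormone on granulosa cells, was at 3.26 RPKM in ovary and 1.25 in testis and listed at 0 in the 7 other organs. LHCGR, the receptor for luteinising hormone on theca, luteal and Leydig cells, was at 16.2 in ovary (14.9 to 17.4) and 19.9 in testis, with at most 0.925 elsewhere. Both receptors thus had their highest levels in the gonads, with FSHR 2.32-fold above testis after scaling and LHCGR below testis.

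Hormones and their regulators separated further from testis. INHA, the alpha subunit of inhibin, was at 9.70 (8.60 to 10.9) in ovary, 1.40 in heart and 1.11 in testis, and was listed at 0 in the other 6 organs. FST (follistatin), which binds activin, was at 15.7 (14.4 to 17) against 0.931 in adipose and 0.725 in lung, with no read in testis. PGR, the progesterone receptor, was at 3.38 against 0.803 in testis, 3.73-fold higher. SERPINE2, a protease inhibitor made by granulosa cells, was the most abundant gene of the list at 104 (101 to 107) against 3.87 in spleen and 0.806 in testis. FSHR and INHA were not called with median-ratio scaling, where their differences were 0.72 and 0.92.

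Other members were high in ovary without reaching 2-fold above the highest other organ after scaling. ESR1, the main oestrogen receptor, was at 8.78 in ovary and 2.45 in liver, 1.10-fold apart after scaling. GJA1 (connexin 43), the gap junction protein of granulosa cells, was at 60.6 in ovary and 25.6 in heart. The transcription factors GATA4 and GATA6 were at 5.13 and 6.89, against 3.98 in testis and 1.85 in lung as the highest other values. After scaling, heart (3.36) was the highest other organ for GATA4, and ovary equalled it within the counting error (ratio 0.859, 0.714 to 1.03). AMHR2, the receptor for anti-Mullerian hormone, stayed below 1 RPKM at 0.652, and so did ESR2 at 0.408. TNFAIP6, a gene of the expanding cumulus, was listed at 0 in all 9 organs, and so was the luteal and granulosa peptide gene NTS.

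Oocyte genes were low, and some were read in ovary and few other organs. Of 30 listed, 18 were paired and 10 reached 1 RPKM, and 4 of these were called higher than the highest other organ under all 3 scalings: ZP3, ZP4, BMP15 and PADI6. ZP4, a zona pellucida glycoprotein, was at 3.40 RPKM from at least 124 reads and was listed at 0 in the 8 other organs, at least 18-fold higher against a floor of 3 reads per library. ZP3, another zona protein, was at 2.43 (1.89 to 3.07), with 1 read each in spleen and kidney and none elsewhere. The ratio to spleen was 33.3, with a counting interval of 5.79 to 1335 on 1 spleen read. BMP15, a growth factor of the oocyte, was at 1.98 in ovary and 0.0668 in adipose and listed at 0 in the 7 others. PADI6, an enzyme stored in the oocyte cytoplasm, was at 3.41 (2.92 to 3.96) against 0.0419 in liver, a ratio of 25 (8.42 to 123) on 3 liver reads.

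Several defining oocyte genes fell short of 1 RPKM. MOS, the kinase that holds the egg in meiosis, was at 0.909 and listed at 0 in all 8 others, and ZP2 was at 0.523 from 25 reads with 1 read in testis. The oocyte transcription factor NOBOX was at 0.0541 from at least 2 reads, and FIGLA was listed at 0 in all 9 organs. GDF9, the partner of BMP15, was less particular to ovary, at 2.58 there, 1.72 in kidney and 1.40 in muscle, with reads in all 9 organs. SOHLH2, ZAR1 and OTX2, also genes of the list, were lower in ovary than in testis, at 0.0653, 0.0346 and 0.391 against 1.36, 0.584 and 1.81. DDX4, a helicase of germ cells of both sexes, was at 1.74 (1.15 to 2.54) in ovary and 88.9 in testis.

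Genes of sperm formation were also read in ovary. PRM1, a protamine that packs sperm DNA, was at 4.52 RPKM from 15 reads against 3203 in testis, 0.141% of the testis level, and was at 1.45 in heart and 0.40 in muscle. TNP1 and TNP2, the transition proteins of spermatids, were at 2.53 and 1.37 against 1278 and 1001 in testis, 0.198% and 0.136%. Reads of TNP2 were found in all organs but liver, between 0.0789 in muscle and 1.40 in heart. PRM2 had no ovary read against 113 in testis. Of the 15 germ and Sertoli cell genes measured, INHA and CLU were called higher in ovary than in all other organs, neither of them with median-ratio scaling, and 6 higher than the median organ. The source of these low values was not tested.

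**Figure D3:**
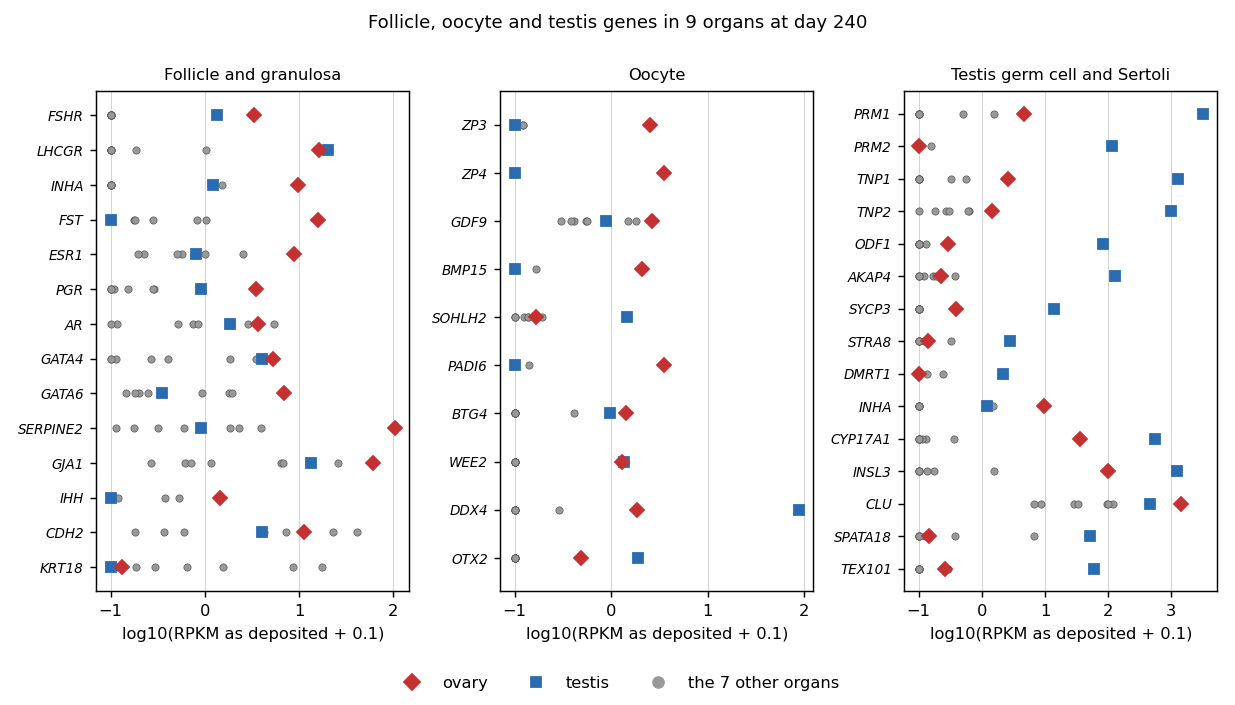
Rows are follicle and granulosa genes (left), oocyte genes (middle) and testis germ cell and Sertoli cell genes (right) that reach 1 RPKM in any of the 9 organs, on an x axis of log10(RPKM as deposited + 0.1). Red diamonds mark ovary, blue squares testis and grey circles the 7 other organs. ZP4 lies at 3.40 RPKM in ovary with all others at 0, and PRM1 at 4.52 in ovary against 3203 in testis.

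Theca and luteal genes were mixed. Of 14 measured, 10 were called higher than the median organ, 3 higher than the highest other organ (CYP11A1, PTGES and TIMP1) and 2 lower than the median organ. PTGES, a prostaglandin E synthase, was at 34.7 RPKM (32.4 to 37) against 2.29 in testis and 1.64 in kidney. TIMP1, a secreted inhibitor of metalloproteinases, was at 1049 (1035 to 1063) against 2.56 in adipose and 0.334 in testis, 127-fold above adipose (104 to 159). INSL3, the peptide of theca and Leydig cells, was at 99.1 in ovary and 1229 in testis, with at most 1.48 in the other organs.

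The angiogenic factors of the list differed from each other. ANGPT2 (angiopoietin 2) was at 9.39 against 1.75 in adipose, the highest other organ, while VEGFA was at 12 in ovary, 14.2 in lung and 8.08 in kidney. PGRMC1, a membrane protein linked to progesterone signalling, was at 172 in ovary and 54.2 in liver, equal to liver within the counting error after scaling (ratio 0.974, 0.933 to 1.02). OXTR, the oxytocin receptor, was at 1.44 in ovary and 0.724 in muscle. Lower than the median organ were HPGD, which degrades prostaglandins, at 0.689 against a median of 3.09, and APOE, at 17.9 against a median of 74.0 and 5041 in liver.

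Ovary and adipose had the highest levels of the main collagens. COL3A1, a fibrillar collagen, was at 733 RPKM in ovary and 427 in adipose and at most 33.1 elsewhere. COL1A2 was at 227 and 309, and the matrix proteoglycan DCN (decorin) at 137 and 201 in the same order. LUM (lumican), another proteoglycan, was at 3.62 in ovary and 67.6 in adipose. The order against adipose turned with the scaling for COL3A1, whose difference was 0.78 as deposited and -0.90 scaled. After scaling, COL1A2 and DCN lay below adipose by log2 differences of -2.13 and -2.24, and LUM by -5.83. Of the 10 genes of stroma and surface measured, 7 were called higher than the median organ. Higher than the highest other organ were 2, and none was with median-ratio scaling. One of them, LHX9, a factor of the developing gonad, was at 2.07 against 0.800 in testis. The surface epithelium gene KRT8 was at 1.62 against 26.8 in liver, and WT1 at 4.69 against 5.10 in spleen and 2.57 in testis.

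Of the TGF-beta and BMP family, 27 genes were measured, 11 were called higher than the median organ and 4 higher than the highest other organ, against 24.7% and 3.13% of all genes. As deposited these counts were 19 and 8. Among ligands and their antagonists these were BMP15, INHA and FST, described above, while TGFB2, TGFB3 and BMP4 lay below the highest other organ at 2.89, 2.69 and 2.98 RPKM. Among receptors, BMPR1B, a type I receptor for BMPs in granulosa cells, was at 5.61 (5.18 to 6.07) against 0.539 in testis and 0.392 in kidney, 6.78-fold above kidney. The other type I and type II receptors were spread more evenly, such as BMPR1A at 10.4 in ovary and 5.08 in kidney, and BMPR2 at 12.4 in ovary and 25 in lung. Among the intracellular mediators, SMAD2 was at 61.7 and SMAD4 at 29.8, against 15.8 in lung and 8.83 in muscle as the highest other values, and both stayed under 2-fold after scaling. The inhibitory SMAD6 and SMAD7 were at 0.319 and 0.571 against 7.31 and 6.38 in lung.

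Genes of other cell types and of dividing cells gave the following levels. Of 18 cell cycle genes, 14 were higher than the median organ, against 24.7% of all genes, and none was higher than the highest, where 3.13% of all genes leave little to read from a list of this size. TOP2A was at 22 RPKM in ovary, 58.6 in testis and at most 5.22 elsewhere. None of 7 endothelial genes was called in either direction, but 5 were higher than the median organ as deposited, where 59.3% of all genes were, and 1 was lower with median-ratio scaling, with PECAM1 at 33.1 in ovary and 39.2 in lung. Of 6 smooth muscle genes, 4 were higher than the median organ, 2 with median-ratio scaling, and DES was lower, a call lost as deposited, where its difference was -0.35. ACTA2 was at 205 in ovary against 116 in spleen and MYH11 at 38.9 against 138. After scaling, ovary was the highest organ for 0 of the 6 smooth muscle genes, ACTA2 included. Of 12 leukocyte genes, 3 (CD68, LYZ and TYROBP) were higher than the median organ, a share near the 24.7% of all genes. PTPRC, the pan-leukocyte marker, was at 7.25 in ovary against 61.7 in spleen, and the B-cell gene CD79B had no ovary read. Of 4 erythrocyte genes, HBB (a haemoglobin chain) was lower than the median organ, at 7.07 against 9.90 as deposited, and its call was lost without scaling.

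Most markers of neighbouring tissues were low. Of 6 paired genes of oviduct and uterus epithelium, the oviduct glycoprotein OVGP1 was at 0.251 RPKM, ELF3 at 0.0564 and FOXJ1 without a read. The epithelial adhesion genes CDH1 and EPCAM were at 1.3 and 0.671, against 14.1 in lung and 13.9 in kidney as their highest levels, while HOXA10, the one gene of 4 measured that was called higher than the median organ, was at 2.40 in ovary and 3.78 in kidney. Of the 3 paired adrenal genes, CYP21A2 was at 0.129 (6 reads) and PNMT and DBH had no ovary read. The summed level of the steroid list was 1589.9 RPKM in ovary and 1514 in testis, against 13.6 in muscle to 120 in liver for the rest. Scaled to the same RPKM sum, the order of the gonads turned, with 753 in ovary and 807 in testis. The summed level of the leukocyte list was 32.7 in ovary, against 1.89 in muscle to 159 in spleen.

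The genes with a symbol that lay furthest above the highest other organ were mostly not in the lists above, except ZP4, PADI6 and TIMP1. They were picked for that difference, so their values are a description. IBSP (ENSSSCG00000009219), a sialoprotein known from bone matrix, was at 194 RPKM (190 to 199, 6462 reads) against 0.118 in testis (7 reads), 0.0353 in lung (2 reads) and no read in the other 6 organs. Its log2 difference of 9.14 was the largest of all genes with a symbol. MSMB (ENSSSCG00000010400), a secreted protein known from prostate, was at 1786 (55266 reads) against 4.97 in spleen and 4.52 in testis, 103-fold above spleen (91.6 to 117). ADAMDEC1, a secreted metalloprotease of the ADAM family, was at 132 against 0.784 in adipose and 0.264 in spleen.

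Signalling and matrix genes followed. AREG (amphiregulin), a ligand of the EGF receptor that relays the luteinising hormone signal, was at 77.9 (74.6 to 81.4) against 1.82 in testis and at most 0.204 elsewhere. TGFA, another ligand of that receptor, was at 23.2 against 0.721 in lung, with no read in testis. PTX3, a pentraxin of the cumulus matrix, was at 79.4 (76.9 to 82.1) against 2.46 in testis and 1.57 in lung. IL1R2, the decoy receptor for interleukin 1, was at 18 against 1.04 in testis.

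The rest of the 20 lay between 3.69 and 71.4 RPKM. DPPA5, a gene of early embryos and germ cells, was at 5.18 from at least 66 reads and listed at 0 in all 8 others, at least 9.61-fold higher against the floor. NPTX2 was at 5.62, TMPRSS7 at 3.69, TMEM74 at 10.8, SCN9A (a sodium channel) at 7.85, CRISPLD1 at 28.7, TPH2 (a tryptophan hydroxylase) at 12.9, SNX31 at 10.6 and CLDN11 (a claudin of tight junctions) at 71.4. GREB1, a gene induced by oestrogen, was at 8.69 against 0.271 in kidney. Testis was the highest other organ for 9 of these 20 genes.

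Of the 477 genes called, 291 had a symbol. Among those without one, ENSSSCG00000006719 was at 863 (33403 reads) against 0.639 in testis and 0.416 in adipose, with no read in 4 organs, and ENSSSCG00000015390 was at 430 against 1.19 in lung. The gene called with the highest ovary level, named after its values were seen, was ENSSSCG00000026109 at 2979 in ovary, 883 in testis and 4.17 in adipose.

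**Figure D4:**
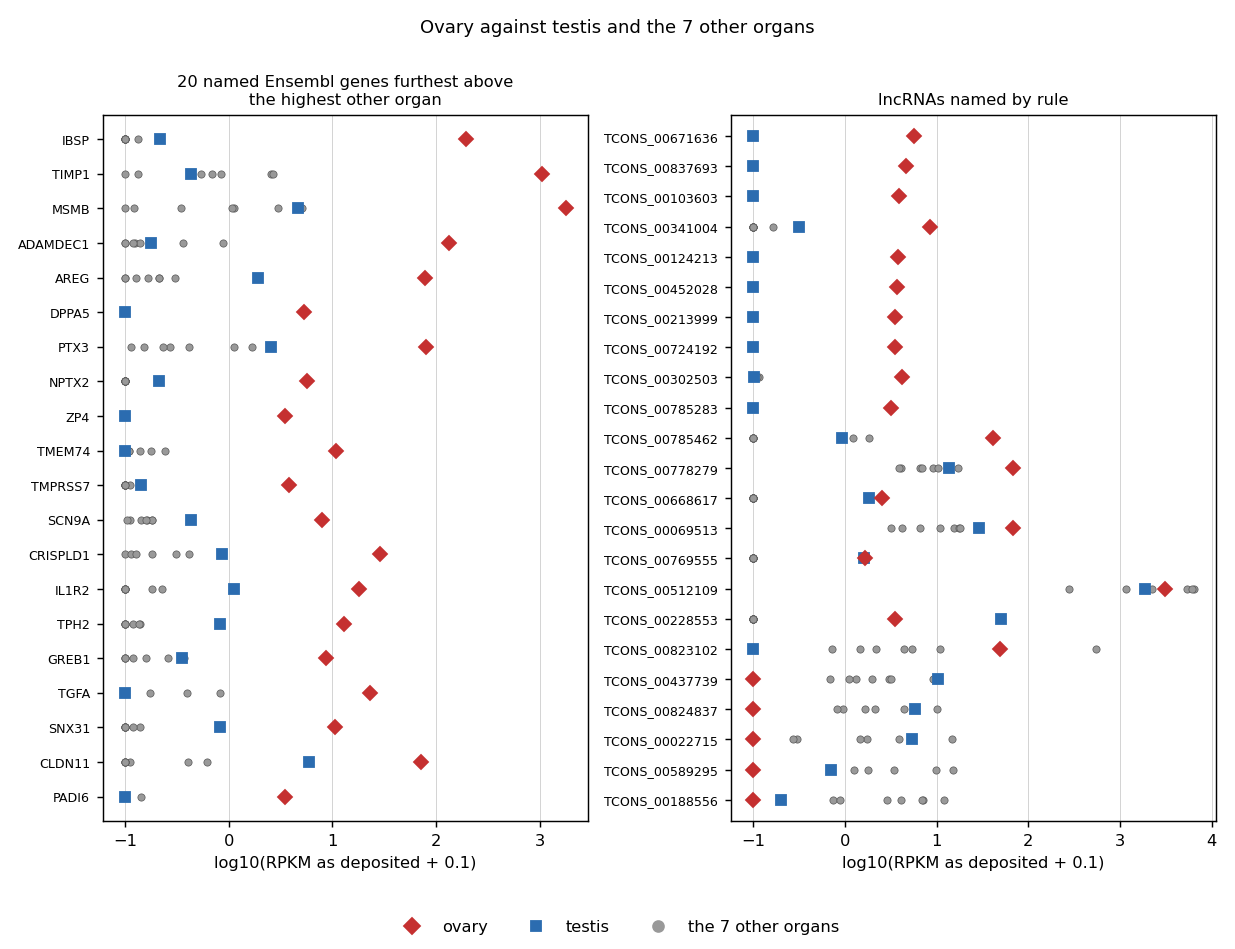
Rows are the 20 Ensembl genes with a symbol that lie furthest above the highest other organ (left) and the lncRNAs named by a fixed rule (right), on an x axis of log10(RPKM as deposited + 0.1). Red diamonds mark ovary, blue squares testis and grey circles the 7 other organs. MSMB lies at 1786 RPKM in ovary and at most 4.97 elsewhere, and the lncRNAs furthest above the others lie between 3.07 and 8.34 RPKM.

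Among genes with a symbol, the most abundant transcripts of the ovary were largely those of mitochondria. Of the 10 genes with a symbol and the highest ovary RPKM, 6 were encoded by mitochondrial DNA, led by COX1 at 5606, which was at 6615 in heart and 505 in spleen. COX2, at 4706 in ovary, was above its highest other level of 2467 in muscle, but 1.16-fold after scaling. The other 4 were MSMB, CLU, TIMP1 and SAT1. CLU (clusterin), a secreted chaperone, was at 1411 against 456 in testis and 119 in liver, 2.75-fold above testis (2.71 to 2.79), and its difference was 0.98 with median-ratio scaling. SAT1, a polyamine acetyltransferase, was at 790 in ovary and 466 in testis, 1.51-fold higher.

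The 709 genes called lower than the median organ had their highest level in spleen (168 genes), lung (119), liver (115) or kidney (96), and 19 of them had no ovary read. ACTA1, the skeletal muscle actin, had no read in ovary, a level below 0.0927 at the floor of 3 reads, against 2998 in muscle, 538 in heart and 0.129 to 2.91 in the others. PEBP4 had no ovary read against 126 in testis and 53.3 in muscle, and HPD, an enzyme of tyrosine breakdown, none against 216 in liver and 25.1 in kidney. GPD1, a glycerol phosphate dehydrogenase, was at 0.416 from 12 reads against a median of 4.37, and SLC38A3, an amino acid transporter, had no read against 28.5 in liver.

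The other genes furthest below the median were MYH8 and MYH14 (myosins, at 0.0209 and 0.0496), ZNF385B (0.119), PRKCQ (0.417) and USP2 (0.355). Without a symbol, ENSSSCG00000002825 had no ovary read against 136 in liver, and ENSSSCG00000029864 had 1 read against 21.3 RPKM in testis. Genes with their lowest level of all in ovary were few: 8 (0.0525%) were at least 2-fold below the lowest other organ, none (0.00%) as deposited and 60 with median-ratio scaling. Of the 8, the 4 with a symbol were CRAT (carnitine acetyltransferase) at 9.11 against 9.26 to 51.9, MAP7D1 at 2.49 against 3.68 to 23.2, HSF1 (a heat shock factor) at 1.21 against 1.41 to 11.9, and GPS2 at 11.5 against 13 to 153.

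The ovary and testis shared 153 genes (1.0%) that were in each gonad at least 2-fold above all 7 other organs, against 1439 (9.43%) on RPKM as deposited. All 153 had to be among the 1439, since ovary and testis had the largest RPKM sums. Testis was at least 2-fold above ovary in 56, ovary above testis in 19, and 78 lay within 2-fold. The genes with the largest gap of both gonads to the rest were CYP11A1, CYP17A1, INSL3, MRO and MGARP. MRO was at 32.7 RPKM (30.4 to 35) in ovary, 9.03 in testis and 0 in the 7 others. MGARP, a mitochondrial protein of steroid-producing cells, was at 26.1 in ovary (24.2 to 28.2) and 19.3 in testis with at most 0.434 elsewhere. Since the 5 were picked for that gap, it is a description. CYP17A1 and INSL3 were higher in testis and CYP11A1 and MRO higher in ovary.

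The lncRNAs, transcripts assembled by the authors and carrying TCONS identifiers, were far less abundant. Of 10813 listed, 3984 were above 0 and 785 at least at 1 RPKM in ovary, against 6472 and 2072 in testis, and they took 1.49% of the counted reads. Of 3346 with at least 1 RPKM in any of the 9 organs, 146 (4.36%) were called higher than the highest other organ, against 280 (8.37%) as deposited. Against the median organ, 484 (14.5%) were higher and 59 (1.76%) lower, or 683 (20.4%) and 25 (0.747%) as deposited. None was at least 2-fold below the lowest other organ, 0.00% in both scales, and 3 were with median-ratio scaling.

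The lncRNAs called were low in depth. Their median was 1.92 RPKM against 10.9 for the genes called, the highest was 41.4, and 67 of the 146 had at least 20 ovary reads. Their median recovered length was 523.5 bases for the 76 above 0 in at least 4 libraries, against 626.5 for the 2106 lncRNAs tested that met the same condition. In 46 of the 146 no read was found in the 8 other organs, and in 34 testis was the highest other organ. All 46 were among the 785 at 1 RPKM or more, so 5.86% of the lncRNAs at that level were read in ovary alone of the 9 organs, against 0.0713% of Ensembl genes (8 of 11223). The study assembled its lncRNAs from RNA-seq of organs and muscle stages, while Ensembl genes came from an outside annotation. A transcript read in ovary alone could thus enter the lncRNA list through an ovary library, so the 2 shares are not like for like.

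The highest called lncRNA was TCONS_00785462 at 41.4 RPKM (36.7 to 46.5, 281 reads), against 1.76 in spleen, 1.12 in lung and 0.828 in testis and none in the other 5 organs. It was 6.79-fold above spleen (4.31 to 11.3). TCONS_00341004 was at 8.34 (7.14 to 9.69, 171 reads) with 8 reads in testis and 2 in muscle, and TCONS_00302503 at 4.10 (3.83 to 4.38, 852 reads) with 5 reads in liver and 4 in spleen. These 3 had the firmest counts among those named, with ratios of 33.8 (16.8 to 79.5) and 74.4 (31.8 to 230) for the last pair over their highest other organ.

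Others were read in ovary alone of the 9 organs. TCONS_00671636 was at 5.58 from at least 37 reads, at least 5.39-fold above the floor of the others, TCONS_00103603 at 3.79 from at least 45 reads, at least 6.55-fold, and TCONS_00724192 at 3.42 from at least 29 reads, at least 4.22-fold. TCONS_00837693 (4.59, at least 21 reads), TCONS_00124213 (3.72) and TCONS_00452028 (3.60, at least 17 reads each) gave lower bounds of 3.06, 2.47 and 2.47. For TCONS_00213999, with at least 5 reads, and TCONS_00785283, with at least 1 read, these minimums were too low to bound a fold. Their true reads may be higher, since length and reads could not be fixed from so few libraries.

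The lncRNAs most abundant in ovary were not confined to it. TCONS_00512109 was at 3057 RPKM in ovary, between 278 in liver and 6380.0 in heart in the others. TCONS_00778279 was at 68.1 against 17 in lung, TCONS_00069513 at 67.4 against 28.7 in testis, and TCONS_00823102 at 49.6 against 544 in adipose. None of these 4 was called higher than the highest other organ. Of the 59 lower lncRNAs, 8 had no ovary read, such as TCONS_00437739, which was at 10.2 in testis and 9.15 in heart, TCONS_00188556 at 12 in liver, TCONS_00022715 at 14.8 in heart, TCONS_00824837 at 5.68 in testis, and TCONS_00589295 at 15.2 in kidney.

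Both gonads shared 28 lncRNAs (0.837%), or 66 (1.97%) as deposited, with testis at least 2-fold above ovary in 11 and ovary above testis in 3. TCONS_00228553 was at 3.42 in ovary (19 reads) and 50.2 in testis, with no read in the 7 others. TCONS_00668617 was at 2.46 and 1.72, and TCONS_00769555 at 1.57 and 1.52 in ovary and testis, likewise with no read elsewhere, from at least 33 and 7 ovary reads.

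**Figure D5:**
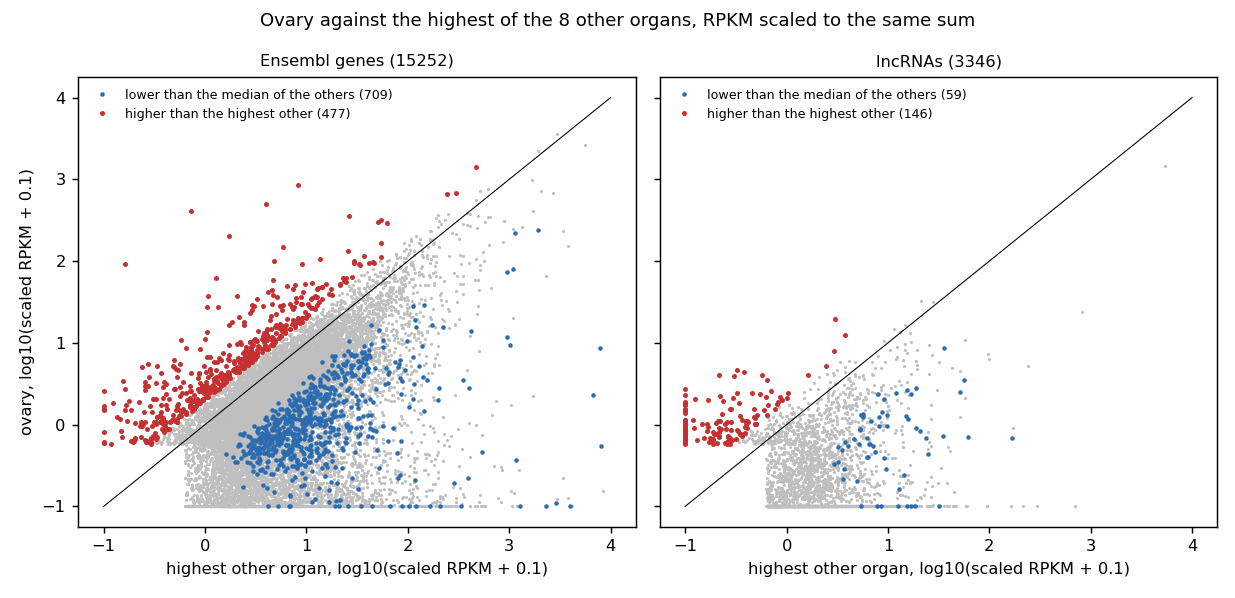
Each point is a feature with at least 1 RPKM in any of the 9 organs, with ovary on the y axis and the highest of the 8 other organs on the x axis, both as log10(RPKM scaled to the same sum + 0.1), for 15252 Ensembl genes (left) and 3346 lncRNAs (right). Red points (477 and 146) were called higher than the highest other organ, blue points (709 and 59) lower than the median of the others, and the line marks equal levels.

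Across features, ovary was ranked most like adipose for Ensembl genes, with a Spearman rho of 0.789 over 15252 genes, followed by heart (0.701), spleen (0.689), muscle (0.687), lung (0.679), kidney (0.670), liver (0.583) and testis (0.529). For the 3346 lncRNAs the order began with spleen (0.529), lung (0.498) and adipose (0.491) and ended with testis (-0.173). These are descriptions over features that share libraries and depth. The testis values move with the filter: of the 3346 lncRNAs, 2072 reached 1 RPKM in testis and 785 in ovary, and over all 8631 above 0 the testis rho was 0.00475.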

How the data were processed

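Per the labels and the study's methods, the authors mapped reads with TopHat 1.3.2, assembled transcripts with Cufflinks, filtered them to lncRNAs and counted reads with htseq-count, and they deposited RPKM values, 1 per feature and library. The genome build of these libraries is not given in the sources used here. The values of the 9 day 240 libraries were scaled to the same sum (the median of the 9 sums, 101533), and differences were taken on log2(RPKM + 0.1), a scale that understates the change of low features. Whole reads, lengths and totals were recovered from the RPKM values: all 29462 features above 0 gave whole reads at a relative tolerance of 1e-09. For features read in 3 or fewer libraries the recovered reads are minimums, given as "at least". Intervals are exact Poisson 95% intervals, those of ratios exact binomial ones, and the floor was 3 reads. They cover counting error only.

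Gene symbols came from a table of gene names that paired 11654 of 21607 Ensembl identifiers, and 187 of 271 listed symbols were paired. STAR, HSD3B1, CYP19A1, FOXL2, AMH, INHBA and ZP1, among others, were not paired and were not analysed here. Some list members that were measured and counted are not reported here by name. Named were members of 15 gene lists (those in list order, and those that define a list), the 20 genes furthest above the highest other organ, the 10 highest in ovary, the 10 furthest below the median and 5 furthest below the lowest organ (4 had a symbol), 5 shared with testis, up to 2 genes without a symbol in each direction, and lncRNAs by the same kind of rule. More members than the rule's 8 are named for some lists. The members, lists and rules were chosen with earlier results of these data known. How reads of near-identical genes were divided is not given. Python 3.11.15, pandas 2.3.3, numpy 2.4.6, scipy 1.17.1 and matplotlib 3.10.9 were used, and the scripts were tested on simulated data. Alternatives were other scalings, pseudocounts, RPKM minimums, a 4-fold limit, testis left out and intervals apart.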

Additional observations from a re-analysis of the deposited data

How the results depend on the processing

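Of the named features, 47 of 55 called higher were called with median-ratio scaling, 50 with a pseudocount of 1 and all 55 as deposited, with a pseudocount of 0.01 or without testis. None of the 55 could be lost as deposited, with the smaller pseudocount or without testis, so those counts are no check. Ovary had the largest RPKM sum, a smaller pseudocount widens a positive difference, and fewer organs cannot raise the highest. Of 25 called lower, 22 were called as deposited and 24 without testis. Counts are given in the order higher than the highest other organ, higher than the median, lower than the median, lower than the lowest and shared with testis, where they moved by over 1.5 times. For Ensembl genes (477, 3766, 709, 8 and 153) they were 2014, 9051, 164, 0 and 1439 as deposited. With a pseudocount of 1 they were 291, 1952, 343, 4 and 64. With a 4-fold limit they were 141, 1436, 180, 0 and 49. With median-ratio scaling, lower than the median moved to 1133 and lower than the lowest to 60, the latter to 15 without testis. With a minimum of 5 RPKM, the last 4 were 2225, 175, 3 and 78, and with 0.1 RPKM the last 3 were 1424, 22 and 247. For lncRNAs (146, 484, 59, 0 and 28), as deposited, the first was 280, the third 25 and the last 66. With a pseudocount of 1, the first 3 were 37, 142 and 33 and the last was 3. With 0.1 RPKM they were 277, 1282, 331, 8 and 137, with 5 RPKM the first 3 were 13, 67 and 8 and the last was 5, and with a 4-fold limit the first was 81, the third 24 and the last 16. Lower than the lowest was 3 with median-ratio scaling. Of the 146, 68 also had Poisson intervals apart from those of the highest other organ. Over all features above 0, rho for Ensembl genes was 0.834 for adipose, 0.781 for heart and spleen (0.781), 0.779 for lung, 0.764 for kidney and muscle (0.764), 0.697 for liver and 0.680 for testis. For lncRNAs it was 0.442 for spleen, 0.414 for lung, 0.411 for adipose, 0.410 for kidney, 0.398 for heart, 0.377 for muscle, 0.339 for liver and 0.00475 for testis, which reversed its sign. The cause of these changes was not tested beyond what each setting does by construction. No paired analysis was possible because each organ had 1 library and no test was made.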

Other observations

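The tissue mixture, a library of RNA pooled from multiple tissues, breeds and ages, was above 0 for 469 of the 477 genes called higher in ovary and reached 1 RPKM for 343. Of the 146 lncRNAs called, 95 (65.1%) were above 0 there and 10 (6.85%) reached 1 RPKM. Over all 21607 Ensembl genes listed, 19189 were above 0 in the mixture and 13400 reached 1 RPKM. Over all 10813 lncRNAs listed, 6587 and 687 did, shares close to those of the 146. CYP11A1 was at 0.135 RPKM in the mixture, ZP4 at 0.00548 and IBSP at 0.0120, against 638, 3.40 and 194 in ovary, while DPPA5 and BMP15 had no read there. The labels do not say whether ovary was among the tissues mixed.

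In longissimus dorsi of younger pigs, 147 of the 477 genes (30.8%) reached 1 RPKM at day 0 and 99 (20.8%) at day 30. Over all 21607 Ensembl genes listed, 7021 and 5388 did, so the shares among the 477 were no higher than among all genes. TIMP1 was at 2.19 RPKM at day 0 and 0.220 at day 30, and PTX3 at 2.33 and 0.673, against 1049 and 79.4 in ovary. Of the 146 lncRNAs, 1 reached 1 RPKM at each of these ages, against 268 at day 0 and 170 at day 30 of all 10813 listed.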
